A study of Mus musculus with 6 samples.

Results

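The genes described here encode the lysosome, the acidic organelle in which liver cells digest proteins, glycans and lipids. They were 35 of the 23284 genes in the count files, chosen by name from their known roles. The list holds 2 transcription factors, 10 proteases, 6 glycosidases, 6 proteins of lipid handling, 5 membrane proteins and 6 proteins of the proton pump or attached to it. All 35 were found by symbol and all passed the filter on low counts, as did 12453 genes in all.

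The livers came from FXR-floxed male mice injected at 8 weeks of age with 2 AAV8 vectors, both driven by the TBG promoter, which is active in hepatocytes. One vector carried Cre recombinase, which deletes the floxed FXR gene, and the other carried either FXR-WT or Y67F-FXR, a form that cannot be phosphorylated at tyrosine 67. All mice ate chow with 0.5% cholic acid for 6 h before the livers were taken, 4 weeks after injection. The files held 3 FXR-WT and 3 Y67F-FXR livers, numbered 1 to 3 in each group, and cells of the liver other than hepatocytes kept their own FXR gene. FXR is the nuclear receptor for bile acids, and the comparison set lysosomal genes beside autophagy genes in these groups.

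Autophagy wraps cell contents in a vesicle, the autophagosome, which delivers them to the lysosome for digestion. TFEB and its relative TFE3 are transcription factors that bind an E-box in the promoters of many lysosomal and autophagy genes. When nutrients are plentiful, the kinase mTORC1 on the lysosome surface keeps TFEB out of the nucleus, and in fasting TFEB enters it. Cathepsins are proteases that work at acid pH, which the V-ATPase maintains by pumping protons into the lysosome. In liver, hepatocytes and the resident macrophages called Kupffer cells are both rich in lysosomes.

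Library totals were between 19551113 and 22053320 reads on genes, and the 35 genes took from 0.551% to 0.627% of them. Values are CPM, the counts of a gene scaled to library depth with TMM factors, and levels of different genes are compared as CPM per kb of exon. Nr1h4, the mouse gene for FXR, had 152, 209 and 198 CPM in the FXR-WT livers and 169, 169 and 186 CPM in the Y67F-FXR livers, and counts over the whole gene do not tell the deleted gene from the vector's. The labels do not say whether the vector carried mouse or human FXR. The study's methods describe its Flag-tagged FXR as human without naming this vector, and reads from a human sequence may be missed on the mouse gene, so these values do not measure the vector's FXR. Groups were compared with the quasi-likelihood F-test of edgeR, and each adjusted p is its p corrected by the Benjamini-Hochberg method over the whole set of tested genes. A gene was called when its adjusted p was under 0.05 and its fitted fold change was over 1.5. The labels number the livers and say no more of how the mice were kept, so p-values measure only the spread between these livers.

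None of the 35 lysosomal genes was called in either direction. Of all tested genes, 68 (0.546%) were called higher and 53 (0.426%) lower in Y67F-FXR livers, and scaling by plain library totals gave 52 and 68. By the same test at an unadjusted p under 0.05, 8 lysosomal genes (22.9%) were higher and 1 (2.86%) was lower, beside 6.75% and 6.67% of all tested genes. DESeq2 called 1 lysosomal gene, Tfeb. The 3 Y67F-FXR livers all lay above the 3 FXR-WT livers in 11 of the 35 genes (31.4%) and below them in 2 (5.71%), beside 10.2% and 10.5% of all tested genes. The fitted log2 fold change, Y67F-FXR minus FXR-WT, was above 0 in 29 of the 35 genes, or in 23 with library totals, and in 52.0% of all tested genes. Its median was 0.15 over the 35 genes and 0.01 over all tested genes, and with library totals these medians were 0.07 and -0.06. The median of the 35 genes was 0.09 without Y67F-FXR replicate 2 and 0.24 without Y67F-FXR replicate 1. In 12 of the 35 genes, Ctsb, Ctss, Ctsz, Gla, Lipa, Npc2, Lamp2, Cd63, Atp6v0d1, Atp6v1a, Atp6v1h and Atp6ap1, the sign depended on which liver was left out. These members were chosen with results of these livers known, so the counts describe the list and test nothing about it.

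**Figure D1:**
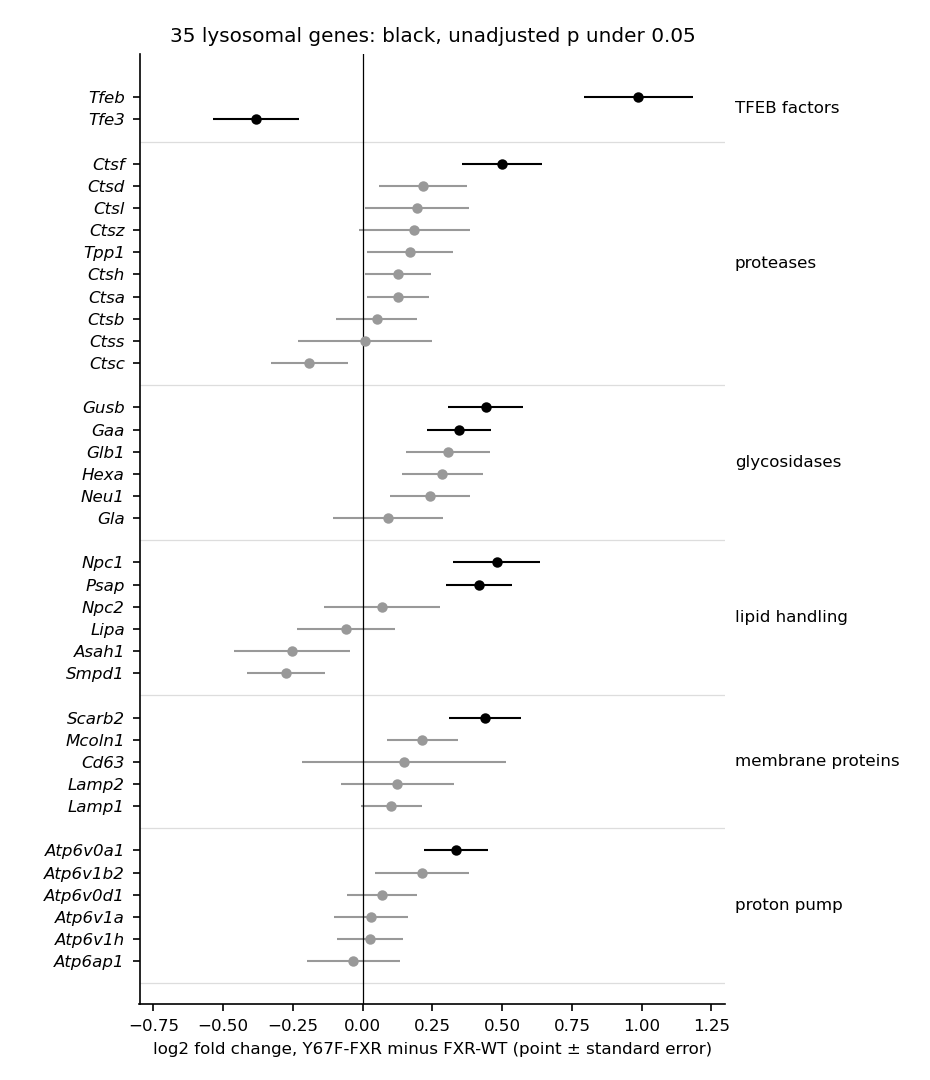
Fitted log2 fold change (Y67F-FXR minus FXR-WT, point ± standard error, 3 livers a group) of the 35 lysosomal genes by role. Tfeb stands farthest to the right at 0.99, Tfe3 lies to the left at -0.38, and all 6 glycosidase points lie above 0.

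Tfeb had the largest fold change and the smallest p of the 35 genes. It encodes the factor that drives lysosomal gene expression when active in the nucleus. Tfeb (chromosome 17 of mm9, 47873986 to 47929365) had 13.6, 11.9 and 11.4 CPM in the FXR-WT livers and 26.5, 17.8 and 28.8 CPM in the Y67F-FXR livers. The groups did not overlap, and Y67F-FXR replicate 2 was the lowest of its group. The means were 12.3 ± 1.14 CPM (SD, n = 3) and 24.4 ± 5.83 CPM (SD, n = 3), a 1.98-fold difference. The fit gave a log2 fold change of 0.99 ± 0.196 (standard error) and edgeR an adjusted p of 0.0721. This p moved across the threshold with single livers, from 0.0282 without Y67F-FXR replicate 2 to 0.269 without Y67F-FXR replicate 3. Tfeb was also past the threshold when libraries were corrected for gene length (edgeR, adjusted p = 0.0327), and not with library totals (edgeR, adjusted p = 0.105).

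Tfe3, whose product binds the same sites, lay in the other direction. Tfe3 (chromosome X of mm9, 7339787 to 7352328) had 42.3, 32.4 and 32.6 CPM in FXR-WT and 24.7, 30.9 and 26.7 CPM in Y67F-FXR livers. The groups did not overlap, but 30.9 and 32.4 CPM were close. The log2 fold change was -0.38 (standard error 0.154, edgeR, adjusted p = 0.338). Per kb of exon, the mean level over the 6 livers was 9.65 CPM for Tfe3 and 6.49 CPM for Tfeb.

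The E-box CACGTG, the core of the site that TFEB and TFE3 bind, was looked for on both strands in RefSeq promoter windows of GRCm38.p6, which run from 250 bases before to 50 bases after a gene's start. Of the 35 genes, 29 had such a window. That motif was in a window of 11 of them (37.9%), beside 11.9% of the 8975 tested genes with a window and 8.09% of all 27025 genes in the table. The longer GTCACGTG, which contains it, was in 7 of the 29 (24.1%), beside 4.80% and 2.55%. Among genes of the other lists with a window, the E-box was in 10 of 41 other lysosomal genes (24.4%), 4 of 7 enzyme sorting genes (57.1%), 5 of 20 genes of mTORC1 control (25%) and 6 of 36 autophagy genes (16.7%). A gene with several windows counted once if any held the letters.

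Shown here are the 250 bases before the start of 4 lysosomal genes, Lamp1 for its 4 E-boxes, Mcoln1 for its pair, and Ctsf and Gaa because of the 8 genes higher at an unadjusted p under 0.05 they alone had an E-box in a window of the table, which holds none for Npc1. The E-box is in capitals, each sequence is 5′ to 3′ on the gene's own strand, which is the plus strand in all 4, and the regions are chr8:13158911-13159160 for Lamp1, chr8:3500269-3500518 for Mcoln1, chr19:4854915-4855164 for Ctsf and chr11:119267713-119267962 for Gaa in GRCm38.p6.
Lamp1: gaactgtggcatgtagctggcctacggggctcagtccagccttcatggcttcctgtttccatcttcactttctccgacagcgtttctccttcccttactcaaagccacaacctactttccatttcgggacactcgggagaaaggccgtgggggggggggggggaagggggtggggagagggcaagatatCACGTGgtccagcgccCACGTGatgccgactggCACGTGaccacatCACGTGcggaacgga
Mcoln1: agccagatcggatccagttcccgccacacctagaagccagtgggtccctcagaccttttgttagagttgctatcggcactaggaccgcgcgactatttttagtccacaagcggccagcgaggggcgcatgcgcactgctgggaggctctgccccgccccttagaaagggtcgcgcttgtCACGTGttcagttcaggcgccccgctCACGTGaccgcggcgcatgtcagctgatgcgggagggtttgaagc
Ctsf: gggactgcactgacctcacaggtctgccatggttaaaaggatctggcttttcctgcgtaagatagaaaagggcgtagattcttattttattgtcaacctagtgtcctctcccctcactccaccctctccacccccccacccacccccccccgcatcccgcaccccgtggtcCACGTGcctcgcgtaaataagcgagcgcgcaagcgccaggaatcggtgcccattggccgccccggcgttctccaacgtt
Gaa: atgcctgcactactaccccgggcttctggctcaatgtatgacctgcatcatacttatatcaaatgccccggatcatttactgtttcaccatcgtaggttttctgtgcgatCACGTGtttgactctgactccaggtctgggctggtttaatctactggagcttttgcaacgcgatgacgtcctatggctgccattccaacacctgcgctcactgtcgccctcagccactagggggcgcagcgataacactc

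In Lamp1 the 4 E-boxes began 61, 45, 28 and 15 bases before the start. In Ctsf and Gaa the E-box lay farther away, 79 and 140 bases before it. The log2 fold change was above 0 in all 11 lysosomal genes with an E-box (9 of 11 with library totals), with a median of 0.19 and a range from 0.03 to 0.50. It was above 0 in 13 of the 18 genes whose windows lacked one (11 of 18 with library totals), with a median of 0.16 and a range from -0.38 to 0.99. Tfeb and Tfe3 were among these 18. At an unadjusted p under 0.05, 2 of the 11 genes with an E-box and 5 of the 18 without were higher, beside 6.75% of all tested genes. In Gla, Atp6v0d1 and Atp6v1a, which had an E-box, the sign depended on which liver was left out. The number of E-boxes did not order the genes, since Lamp1 with 4 had a log2 fold change of 0.10 and Ctsf with 1 had 0.50.

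Of the 10 proteases, 9 were fitted higher (7 with library totals). Their log2 fold changes had a median of 0.15 (0.08 with library totals), and Ctsf alone had an unadjusted p under 0.05. Ctsf (chromosome 19 of mm9, 4855129 to 4860912) encodes cathepsin F, a cysteine protease. It had 38.4, 35.1 and 32.8 CPM in FXR-WT and 42.5, 56.6 and 51.1 CPM in Y67F-FXR livers. The Y67F-FXR livers were all higher, at a log2 fold change of 0.50 (standard error 0.142, edgeR, adjusted p = 0.169).

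Ctsl (chromosome 13 of mm9, 64464522 to 64471614), for cathepsin L, had the highest level of the 35 genes at 424.9 CPM per kb. It had 989, 730 and 624 CPM in FXR-WT and 864, 995 and 822 CPM in Y67F-FXR livers. Its groups overlapped, with FXR-WT replicate 1 nearly as high as Y67F-FXR replicate 2. The log2 fold change was 0.19 (standard error 0.185). Ctsd, the aspartic protease cathepsin D, Ctsz, the carboxypeptidase cathepsin Z, and Ctsh, the aminopeptidase cathepsin H, were the next proteases by level, at 237, 237 and 163 CPM per kb. All 3 had overlapping groups. Ctsb, for cathepsin B, had a log2 fold change of 0.05, and 773 of its exon bases are shared with Fdft1, where reads were not counted. Of the exon bases of Ctsa, the protease that also protects other lysosomal enzymes, 819 are shared with Pltp or Neurl2. Ctsc (-0.19) was the only protease fitted lower, and Ctss, a protease of macrophages and other immune cells, stood at 0.0073. Tpp1, a tripeptidyl peptidase, had a log2 fold change of 0.17.

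**Figure D2:**
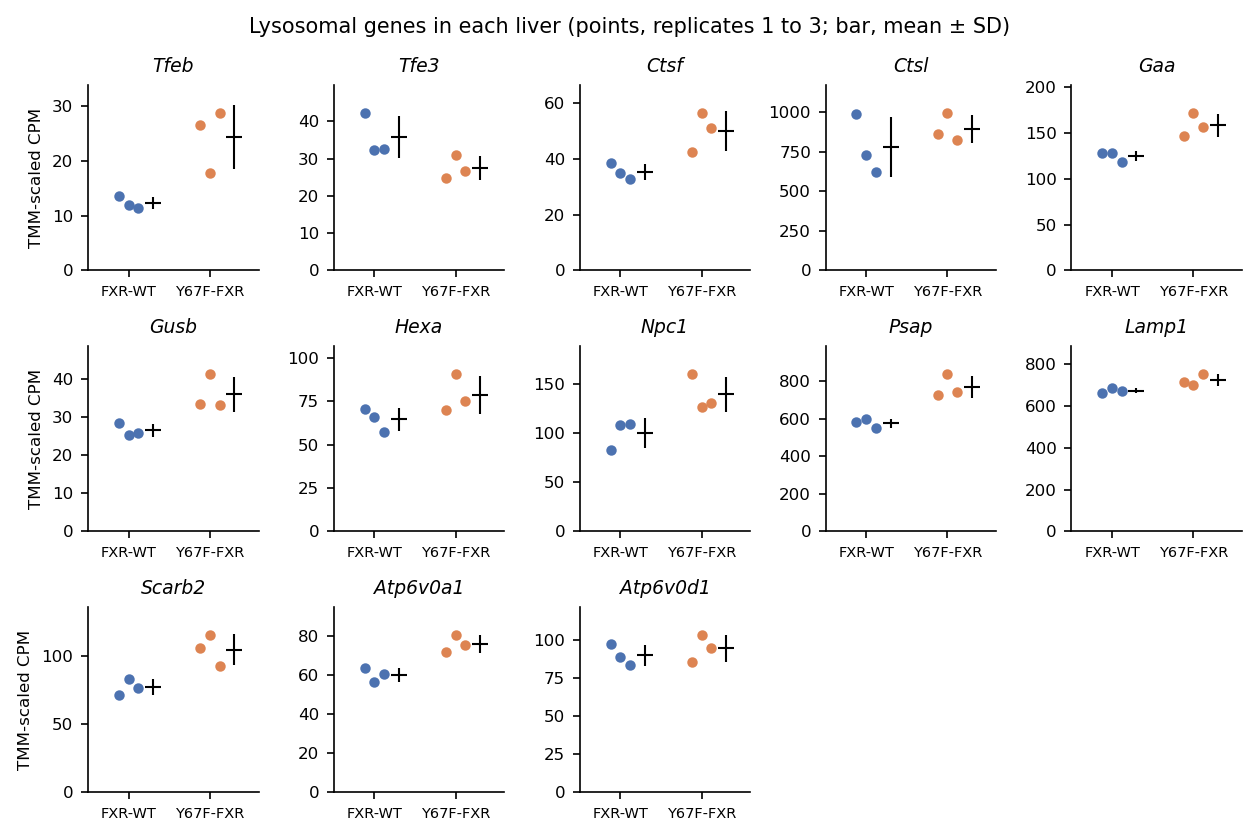
TMM-scaled CPM of 13 lysosomal genes in each of the 3 FXR-WT and 3 Y67F-FXR livers, with the mean ± SD beside the points and each axis starting at 0. The groups are apart for Tfeb, Ctsf, Gaa, Gusb, Npc1, Psap, Scarb2, Atp6v0a1 and Lamp1, with Y67F-FXR higher, and for Tfe3, with Y67F-FXR lower, and they overlap for Ctsl, Hexa and Atp6v0d1.

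The glycosidases, which remove sugars from glycans, glycolipids and glycoproteins, were all fitted higher, also with library totals. Their median log2 fold change was 0.30 (0.22 with library totals), and Gla lay on either side of 0 (-0.04 to 0.19) when 1 liver was left out. Gusb and Gaa had an unadjusted p under 0.05. Gusb (chromosome 5 of mm9, 130464891 to 130478698), for beta-glucuronidase, had 28.5, 25.2 and 25.8 CPM in FXR-WT and 33.4, 41.3 and 33.2 CPM in Y67F-FXR livers. Gaa (chromosome 11 of mm9, 119129281 to 119147012), for the acid alpha-glucosidase that digests glycogen, had 127.6, 127.9 and 118.6 CPM in FXR-WT and 147, 172 and 157 CPM in Y67F-FXR livers. In both genes the Y67F-FXR livers were all higher, and replicate 2 was the highest. The log2 fold changes were 0.44 for Gusb (standard error 0.134) and 0.35 for Gaa (standard error 0.115), and edgeR gave adjusted p values of 0.197 and 0.237.

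Hexa (chromosome 9 of mm9, 59387474 to 59412912), the alpha subunit of beta-hexosaminidase, had the highest level of the glycosidases at 38.4 CPM per kb, close to Gaa at 37.3. It had 70.4, 66.1 and 57.0 CPM in FXR-WT and 69.7, 90.7 and 75.3 CPM in Y67F-FXR livers. The groups overlapped by the lowest Y67F-FXR and the highest FXR-WT liver, and the log2 fold change was 0.28 (standard error 0.145). Glb1, the beta-galactosidase, had groups that did not overlap (log2 fold change 0.31), and 151 of its exon bases are shared with Tmppe. Neu1, the sialidase, had a log2 fold change of 0.24, and Gla, the alpha-galactosidase, of 0.09. Gla had the lowest level of all 35 genes, at 1.58 CPM per kb.

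The 6 genes of lipid handling split in direction, with 3 fitted higher and 3 lower (2 and 4 with library totals). Npc1 and Psap had an unadjusted p under 0.05. Npc1 (chromosome 18 of mm9, 12348203 to 12394895) encodes the membrane protein that exports cholesterol from the lysosome. It had 82.5, 108.6 and 109.2 CPM in FXR-WT and 160.5, 127 and 131 CPM in Y67F-FXR livers. The Y67F-FXR livers were all higher, and replicate 1 was the highest of them. The log2 fold change was 0.48 (standard error 0.157, edgeR, adjusted p = 0.232). Npc2, which hands cholesterol to NPC1, had 102, 92.3 and 71.2 CPM in FXR-WT and 69.6, 114 and 94.8 CPM in Y67F-FXR livers. Its groups overlapped over nearly their whole range.

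Psap (chromosome 10 of mm9, 59740376 to 59765348), the precursor of the saposins that help enzymes reach sphingolipids, had the highest level of this group at 246 CPM per kb. It had 582, 598 and 551 CPM in FXR-WT and 728, 840 and 742 CPM in Y67F-FXR livers. The gap between the groups was wider than the range within FXR-WT, and the fitted fold change was 1.33. The log2 fold change was 0.42 (standard error 0.119, edgeR, adjusted p = 0.169). The Wald test of DESeq2 gave an adjusted p of 0.0312, with a fold change under the minimum for a call. A pair of enzymes that act on sphingolipids lay in the other direction, Smpd1, the acid sphingomyelinase, with a log2 fold change of -0.28, and Asah1, the acid ceramidase, with -0.25. The Smpd1 groups did not overlap. Lipa, the acid lipase for cholesteryl esters and triglycerides, had 167, 218 and 229 CPM in FXR-WT and 219, 158 and 212 CPM in Y67F-FXR livers, which overlapped (log2 fold change -0.06).

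The 5 membrane proteins were all fitted higher, also with library totals, but Lamp2 and Cd63 reached -0.03 and -0.21 when 1 liver was left out. Scarb2 had an unadjusted p under 0.05. Scarb2 (chromosome 5 of mm9, 92872899 to 92934634) encodes LIMP-2, which carries beta-glucocerebrosidase to the lysosome. It had 71.5, 83.1 and 76.4 CPM in FXR-WT and 105, 115 and 92.4 CPM in Y67F-FXR livers. The groups did not overlap, at a log2 fold change of 0.44 (standard error 0.129, edgeR, adjusted p = 0.183).

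Lamp1 (chromosome 8 of mm9, 13159135 to 13175338), a main glycoprotein of the lysosomal membrane, was the second gene by level at 310.1 CPM per kb. It had 662, 689 and 673 CPM in FXR-WT and 717, 701 and 755 CPM in Y67F-FXR livers. The spread within groups was small, so the groups did not overlap although the fitted difference was only 1.07-fold, a log2 fold change of 0.10 (standard error 0.109). Lamp2, which also takes part in chaperone-mediated autophagy, ranged from 301 to 423 CPM in FXR-WT and from 316 to 484 CPM in Y67F-FXR livers. Mcoln1, the calcium channel TRPML1, had a log2 fold change of 0.21 with groups that did not overlap. Cd63, a tetraspanin, had the largest standard error (0.366 on a log2 fold change of 0.15), with levels from 3.89 to 8.85 CPM in FXR-WT and from 4.91 to 9.22 CPM in Y67F-FXR livers.

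Of the proton pump genes, 5 of 6 were fitted higher with TMM factors and 2 of 6 with library totals. The median log2 fold changes were 0.05 and -0.02. Atp6v0a1 (chromosome 11 of mm9, 100870766 to 100925031), the membrane subunit a1, had an unadjusted p under 0.05. It had 63.3, 56.3 and 60.5 CPM in FXR-WT and 71.4, 80.4 and 75.3 CPM in Y67F-FXR livers. The groups did not overlap, at a log2 fold change of 0.33 (standard error 0.114, edgeR, adjusted p = 0.247). Atp6v0d1 (chromosome 8 of mm9, 108048370 to 108089940), subunit d1 of the pump's membrane sector, had the highest level of the group at 56.9 CPM per kb. It had 97.2, 88.5 and 83.6 CPM in FXR-WT and 85.3, 103.1 and 94.2 CPM in Y67F-FXR livers, which overlapped (log2 fold change 0.07, and -0.0033 with library totals). The cytosolic subunits Atp6v1a (0.03) and Atp6v1h (0.03) and the accessory subunit Atp6ap1 (-0.03) were near 0 on the log2 fold change scale, each with a standard error between 0.118 and 0.168. Atp6v1b2 had 0.21 with overlapping groups.

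Lysosomal genes outside these 35 were described in the same way. Of 54 tested genes of a second list, 37 were fitted higher (31 with library totals). Their median log2 fold change was 0.10, and none was called. At an unadjusted p under 0.05, 7 (13.0%) were higher and 2 (3.70%) lower, beside 6.75% and 6.67% of all tested genes. DESeq2 called 1 of them, Arsa. The median was 0.02 with library totals, -0.02 without Y67F-FXR replicate 2 and 0.16 without Y67F-FXR replicate 1. Arsa, the arylsulfatase that acts on sulfatides, had the smallest p. It had 52.6, 57.1 and 67.4 CPM in FXR-WT and 96.1, 82.4 and 93.6 CPM in Y67F-FXR livers, with a log2 fold change of 0.62 (edgeR, adjusted p = 0.0961). Hyal2 (0.43), named as a hyaluronidase, and Slc17a5 (0.56), the sialic acid exporter, came next, and their groups did not overlap either. The 11 other proton pump genes of this list went both ways, with 6 fitted higher, 5 lower and none with an unadjusted p under 0.05.

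Of 10 tested genes for tagging and sorting lysosomal enzymes, 5 were fitted higher and 5 lower (4 and 6 with library totals). None was called by edgeR, and 2 (20%) were lower at an unadjusted p under 0.05, beside 6.67% of all tested genes. Sort1, the sorting receptor sortilin, had 25.0, 27.0 and 30.8 CPM in FXR-WT and 21.2, 15.8 and 16.8 CPM in Y67F-FXR livers. These groups did not overlap, with a log2 fold change of -0.62 (edgeR, adjusted p = 0.128). DESeq2 called Sort1 lower. Gga3, a coat adaptor for the receptors, had -0.41, and Gnptg, a subunit of the enzyme that makes the tag, had -0.14 with overlapping groups. In 21 tested genes of mTORC1 control at the lysosome, the median log2 fold change was 0.00082. There 1 gene (4.76%) was lower at an unadjusted p under 0.05, the GTPase gene Rraga (-0.34). Slc38a9 (0.35), an amino acid sensor, and Tsc2 (0.29), an inhibitor of mTORC1, came next.

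Of 44 tested autophagy genes, 32 were fitted higher (24 with library totals). Their median log2 fold change was 0.09 (0.02 with library totals, and 0.04 without FXR-WT replicate 1). Of the 44 genes, 4 were called, all higher (2 with library totals), beside 0.546% of all tested genes called higher. Atg7, the E1-like enzyme that activates the ATG8 proteins, had 51.2, 59.7 and 56.6 CPM in FXR-WT and 109, 111 and 112 CPM in Y67F-FXR livers. Ulk1, the kinase that starts autophagy, had 35.8, 43.1 and 39.5 CPM in FXR-WT and 78.5, 71.1 and 71.2 CPM in Y67F-FXR livers. In both genes the gap between the groups was wider than the range within either. The log2 fold changes were 0.99 for Atg7 and 0.90 for Ulk1, and edgeR gave adjusted p values of 0.0164 and 0.0232. Atg3 (0.68), the E2-like enzyme, and Atg2a (0.71), a lipid transfer protein, were the other called genes, for which edgeR gave adjusted p values of 0.0378 and 0.0381.

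The study named Ulk1, Atg3 and Atg7 from these livers, so their direction is not independent evidence. None of the 44 was called when replicate 3 of either group was left out, and with any other liver left out 1 or 2 were. At an unadjusted p under 0.05, 8 autophagy genes (18.2%) were higher and 1 (2.27%) was lower. The shares were 22.9% and 2.86% of lysosomal genes, and 6.75% and 6.67% of all tested genes. The Y67F-FXR livers all lay above the FXR-WT livers in 25.0% of autophagy genes, 31.4% of lysosomal genes and 10.2% of all tested genes. The largest log2 fold changes were 0.99 in both lists, those of Atg7 and Tfeb. The next were 0.90 in the autophagy list and 0.50 in the lysosomal list. The difference between the lists was not tested.

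**Figure D3:**
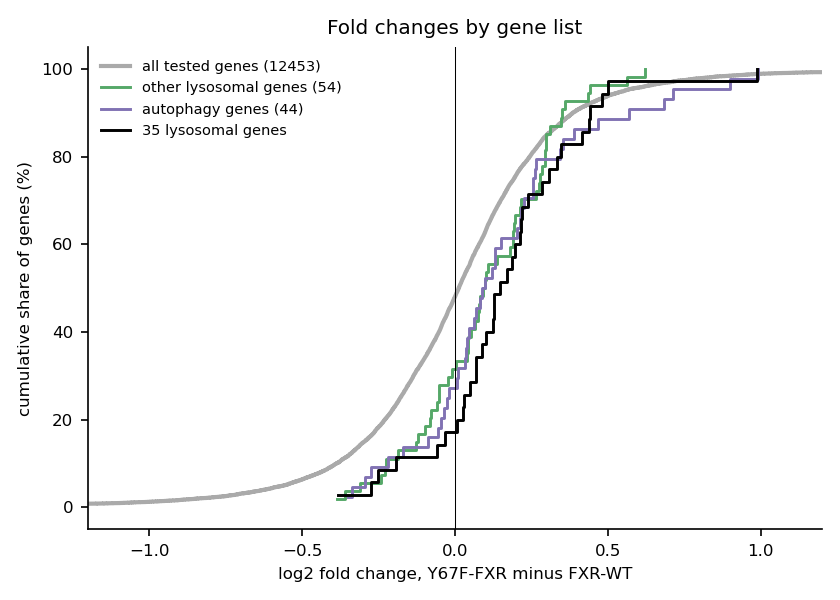
Cumulative share of genes (%) by fitted log2 fold change (Y67F-FXR minus FXR-WT) for the 35 lysosomal genes, 54 other lysosomal genes, 44 autophagy genes and all 12453 tested genes. The lysosomal curve lies to the right of that of all genes over most of its range, with medians of 0.15 and 0.01, and the upper ends of the lysosomal and autophagy curves meet at 0.99, with the 4 called autophagy genes between 0.68 and 0.99.

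The lists were also read in single livers. For each liver, the log2 CPM of a gene was taken relative to its mean over the 6 livers and averaged over the list. The 35 lysosomal genes stood at -0.0068, -0.08 and -0.16 in FXR-WT replicates 1 to 3 and at -0.0100, 0.17 and 0.08 in Y67F-FXR replicates 1 to 3. By these means Y67F-FXR replicate 1 lay just below FXR-WT replicate 1. By the median over the list in place of the mean, the values were -0.03, -0.06 and -0.19 in FXR-WT and -0.0054, 0.21 and 0.09 in Y67F-FXR livers, and the groups did not overlap. The autophagy genes stood at -0.20, -0.02 and -0.0072 in FXR-WT and at 0.11, 0.04 and 0.07 in Y67F-FXR livers. These groups did not overlap by means or by medians, and by means the liver that was highest in its group for autophagy genes, Y67F-FXR replicate 1, was the lowest in its group for lysosomal genes. In FXR-WT livers, replicate 1 was the lowest for autophagy and the highest for lysosomal genes by either measure.

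Other values moved with these orders of the livers. The shortest 2491 of all tested genes stood at 0.17, -0.02 and -0.15 in FXR-WT and at -0.20, 0.21 and -0.02 in Y67F-FXR livers, in the same order within each group as the 35 lysosomal genes. The longest 2490 genes stood at -0.13, 0.0064 and 0.10 in FXR-WT and at 0.20, -0.17 and -0.01 in Y67F-FXR livers, in the same order within each group as the autophagy genes. The median exon length was 2456 bp in the 35 lysosomal genes and 2818 bp in all tested genes. After a correction for gene length the lysosomal values were 0.00049, -0.08, -0.16, -0.01, 0.19 and 0.07, so the order was kept. Those of the autophagy genes were -0.18, -0.02, -0.02, 0.09, 0.07 and 0.07. Their groups still did not overlap, but replicates 2 and 3 changed places within each group, by small differences in FXR-WT (-0.0194 and -0.0197) and in Y67F-FXR (0.0674 and 0.0651). The summed level of 10 Kupffer cell and macrophage markers had the order of the lysosomal genes, with 379, 312 and 248 CPM in FXR-WT and 205, 552 and 331 CPM in Y67F-FXR livers. The groups overlapped, all 10 markers were above 0 in every liver, and no marker was called. Fewer cells of a type and less RNA per cell cannot be told apart in whole liver, and the part of macrophages in the lysosomal values was not tested.

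**Figure D4:**
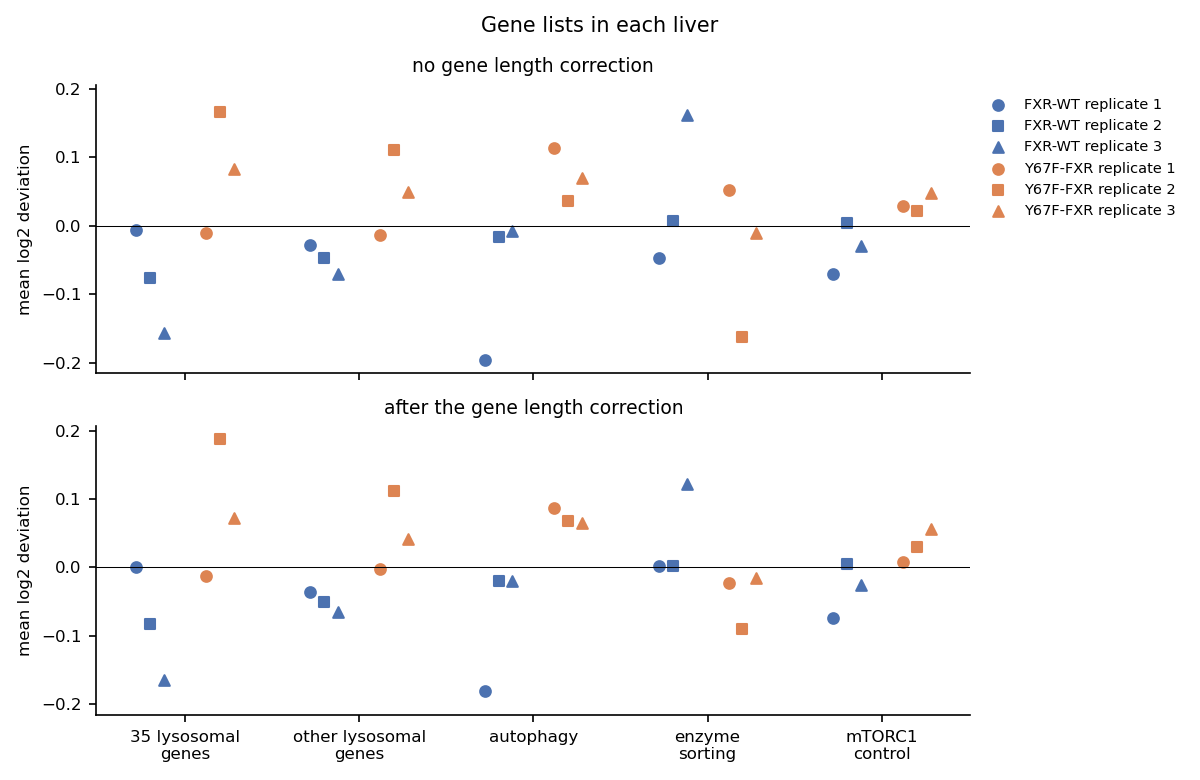
Mean log2 deviation of each gene list from its mean over the 6 livers, per liver, without (top) and with (bottom) a correction for gene length. In the lysosomal list Y67F-FXR replicate 1 (-0.0100 in the top panel) sits just below the highest FXR-WT liver (-0.0068) and above the other two by these means, and in the autophagy list all 3 Y67F-FXR livers lie above the 3 FXR-WT livers.

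Summed over the 35 genes, where the most abundant weigh most, the level was 5903, 5671 and 5251 CPM in FXR-WT and 6040.1, 6689 and 6294 CPM in Y67F-FXR livers. As a share of all reads it was 0.592%, 0.579% and 0.551% in FXR-WT and 0.616%, 0.627% and 0.611% in Y67F-FXR livers, with no overlap on either scale. The other marker lists were read in the same livers. Summed markers of sinusoidal endothelial cells (181 to 205 CPM in FXR-WT, 184 to 198 in Y67F-FXR) and cholangiocytes (46.0 to 71.1 and 54.1 to 60.6) overlapped. All 7 stellate cell markers were fitted lower, and their sums did not overlap (169 to 184 CPM in FXR-WT, 116 to 167 in Y67F-FXR). Most of these sums was Dcn (means of 130 and 121 CPM), whose own groups overlapped (log2 fold change -0.10). The groups of Acta2, Des and Rgs5 overlapped too. The sums of the 2 tested neutrophil markers did not overlap (2.46 to 4.64 and 0.382 to 1.2 CPM). These low-level markers, S100a8 and S100a9, had log2 fold changes of -2.73 and -1.95, and neither was called. The neutrophil marker Retnlg did not pass the filter and did not share this direction. It had 8, 8 and 4 reads in FXR-WT and 4, 18 and 3 reads in Y67F-FXR livers. Mpo had 0 reads in every liver. The 7 hepatocyte markers were abundant in every liver, with sums from 107704 to 129647 CPM that overlapped and had the same order within each group as the lysosomal genes. All 7 were fitted higher (4 with library totals), with a median log2 fold change of 0.17 (0.10 with library totals). The median of the 35 lysosomal genes was 0.15 (0.07 with library totals). Over the 37 tested markers none was called by edgeR. At an unadjusted p under 0.05, 0 were higher and 6 (16.2%) lower, beside 6.75% and 6.67% of all tested genes. Whether these cells had a part in the lysosomal values was not tested.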

How the data were processed

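Per the labels and file headers, the authors aligned paired-end reads to mm9 with STAR (version 2.5.3a in the submitters' processing notes) and counted reads on UCSC genes with featureCounts 1.4.6-p4. Strand was ignored, each read of a pair counted on its own, and reads on several genes or places were dropped, so overlapping exons lose reads. The deposited values are raw counts per gene, 1 file per liver. A deposited table of the authors' own comparison (fold change, mean log2 CPM, p and false discovery rate) was not used.

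Counts were then analysed in R 4.3.3 (edgeR 4.0.16, DESeq2 1.42.0), and figures were drawn in matplotlib 3.10.9 under Python 3.11.15. All 12453 genes past filterByExpr were scaled by TMM and tested with glmQLFit and glmQLFTest on group alone, Y67F-FXR against FXR-WT. The standard error is the log2 fold change over the square root of F. The log2 CPM used a prior count of 2. An exact permutation test of 3 against 3 livers cannot go below 0.10. Same-group libraries differed by more than counting noise (median chi-square per gene 2.21 to 7.84). Each was taken as 1 replicate by its label, which this check cannot show on its own. The scripts were tested on simulated data. Alternatives were other scaling, filters and thresholds, DESeq2, a replicate block, a loess offset on gene length (span 0.3) and each liver left out.

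The members and lists were chosen with earlier results of these data known. Values per liver are given for members with an unadjusted p under 0.05, both TFEB factors, and in each role the member with the highest level and the smallest p. Those of Npc2 and Lipa were added after their values were seen. Other lists are given by counts, with called genes or the 3 with the smallest p. One autophagy gene (Epg5) and 1 neutrophil marker (Ly6g) were not found by symbol. Promoter windows are from RefSeq on GRCm38.p6 and were matched by symbol, and gene coordinates are those of the count files.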

Additional observations from a re-analysis of the deposited data

How the results depend on the processing

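With 3 livers a group, single livers moved the calls. The 121 genes called over the whole table became 9 to 66 with 1 liver left out (9 without FXR-WT replicate 3), 8 with the replicate block, 247 with the length offset, 429 with DESeq2 and 783 at an unadjusted p under 0.05. No lysosomal gene was called, but Tfeb made the count 1 with the length offset, without a low-count filter, with DESeq2 and at an unadjusted p, and the count was 0 to 1 with 1 liver left out (1 without Y67F-FXR replicate 2). The median log2 fold change of the other lysosomal genes was 0.022 with library totals and ranged from -0.023 to 0.16 with 1 liver left out, while over all fits run the median was 0.07 (library totals) to 0.24 (without Y67F-FXR replicate 1) for the 35 genes and 0.02 (library totals) to 0.13 (without FXR-WT replicate 3) for autophagy genes. Atp6v0d1 changed sign with library totals (-0.0033) and without Y67F-FXR replicate 2, with a range of -0.011 to 0.14 when 1 liver was left out. No other fit changed the sign of a gene named by the rule, and 27 single-gene results lost their call and 8 gained one. The shared replicate numbers did not pair the livers (correlations of -0.517, -0.0804 and 0.121 between same-numbered livers). With the replicate block, 0 lysosomal and 0 autophagy genes were called by edgeR. At an unadjusted p under 0.05, 5 lysosomal genes were then higher and 0 lower, beside 8 and 1 in the main fit. The share of all tested genes at that p with the block was not counted. The causes were not tested.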
